A study of Drosophila melanogaster with 2 samples.

Results

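Binding of the zinc finger protein Tiptop (Tio), the paralog of Teashirt, was examined at 6 genes that act at the end of epidermal growth factor receptor (EGFR) signalling or feed back on it. They were the effectors pnt, aop and edl and the feedback inhibitors aos, sty and kek1. The data were chromatin immunoprecipitation sequencing (ChIP-seq) of Drosophila melanogaster whole embryos of mixed sex, aged 4 to 24 h. The embryos came from the strain tio-GFP, a transgenic line in which a C-terminal GFP is fused to tio, and chromatin was sonicated to 200 to 800 bp. The description in the labels gives an anti-GFP antibody, while the antibody field names tio. There were 2 biological replicates and 1 group, so all samples shared the genotype, the tag and the age range, and no conditions were compared. The sequence that drives the fusion is not given in the sources used here. Reads of the control library were not analysed here. In whole embryos, a site bound in few cells and a site bound weakly in many cannot be told apart.

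The members were chosen by name, with earlier results of these data known, as 6 of the 13945 protein-coding genes on the main chromosome arms. The authors kept peaks by their irreproducible discovery rate (IDR), which scores how well peak ranks repeat between replicates. A gene was said to hold a peak when an IDR summit lay in its span or in the 1 kb upstream of it. The IDR list on genome build dm6 held 3793 summits, and 25 of them lay at the members. Each peak carries a signal, which is the authors' own value on a scale that no source states. It is given here for the pooled reads of both replicates and then for replicate 1 and replicate 2, and pooled values are not on the replicate scale (at the members' peaks they were a median 2.01 times the replicates' mean). No read depth was given, so no counting error is stated.

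As background, EGFR ligands activate Ras and a kinase cascade that ends in the MAP kinase Rolled. Rolled acts on transcription through a pair of ETS family proteins, the activator Pointed (pnt) and the repressor Anterior open, also called Yan (aop), and the small protein encoded by edl binds both of them. Argos (aos), Sprouty (sty) and Kekkon 1 (kek1) are made in response to the signal in several tissues and dampen it outside the cell, inside the cell and at the receptor. The pathway patterns the ventral ectoderm, the tracheae and many sense organs of the fly embryo.

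The DNA under the strongest summits of pnt, aop, aos and sty is shown so that base composition and motif matches can be read directly, and edl, which holds the strongest peak of all members, is described without sequence. Each of the following lines holds 81 bases centred on a summit, from the RefSeq copy of the dm6 genome, on the plus strand from 5′ to 3′. All 6 members are transcribed from the minus strand. Capitals mark matches to the Forkhead core TAAACA (read as TGTTTA on this strand) or to the A+T-rich 6-mer TTAAAA. None of these stretches overlaps an annotated exon. A match is a description of the letters and not of a bound factor.
pnt, strongest summit, chr3R:23326453-23326533: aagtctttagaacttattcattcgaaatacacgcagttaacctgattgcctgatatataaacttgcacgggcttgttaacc
aop, strongest summit, chr2L:2179552-2179632: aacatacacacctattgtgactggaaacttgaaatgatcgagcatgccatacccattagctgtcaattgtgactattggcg
aop, second strongest summit, chr2L:2176025-2176105: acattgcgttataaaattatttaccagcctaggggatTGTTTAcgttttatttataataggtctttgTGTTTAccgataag
aos, strongest summit, chr3L:16483858-16483938: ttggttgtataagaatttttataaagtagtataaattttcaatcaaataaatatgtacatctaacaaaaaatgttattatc
aos, second strongest summit, chr3L:16480532-16480612: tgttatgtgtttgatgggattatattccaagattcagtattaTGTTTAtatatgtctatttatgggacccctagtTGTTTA
sty, strongest summit, chr3L:3418967-3419047: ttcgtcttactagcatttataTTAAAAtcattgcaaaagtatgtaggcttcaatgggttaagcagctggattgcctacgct
The strongest aos summit is the extreme of the set, with A or T at 67 of its 81 bases. The second strongest summits of aop and aos each hold 2 copies of the Forkhead core in the same orientation.

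Because pnt and aop encode ETS proteins, matches to the ETS core CAGGAA near summits of aop and aos are shown as well (those of edl are counted later). Each of the following lines holds 56 bases with the match in capitals. The aop stretches are on the plus strand and the aos stretch is on the minus strand, and none overlaps an annotated exon. The match lies 42 bp from the summit in the upper aop stretch, 64 bp from it in the lower aop stretch and 89 bp from it in the aos stretch.
aop, upper, chr2L:2164965-2165020: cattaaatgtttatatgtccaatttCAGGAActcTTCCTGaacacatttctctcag
aop, lower, chr2L:2163538-2163593: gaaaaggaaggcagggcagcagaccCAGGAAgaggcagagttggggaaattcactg
aos, chr3L:16474384-16474439: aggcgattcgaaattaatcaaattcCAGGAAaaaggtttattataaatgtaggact
In the upper aop stretch the core is followed by its own reverse complement, TTCCTG. The peaks beside these 3 stretches had pooled signals of 117, 90.7 and 101.

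Of the 6 members, 5 held at least 1 IDR peak, and kek1 held none. Over all protein-coding genes the share was 16.2%. This and the following shares are descriptions, because the members were chosen with earlier results of the data known. Peaks were numerous at the members that had them, with 10 at pnt, 5 at aop, 4 each at edl and aos, and 2 at sty. Thus 4 of 6 members held 4 or more peaks, against 1.25% of all genes. The 4 at edl and the 4 at aos each include a promoter pair, with summits 199 bp (edl) and 220 bp (aos) apart. Counted once, such a pair would leave both genes below 4. The members are long, with a median span of 17768 bp against 2166 bp for all genes. Among the 3254 genes of 5 to 60 kb, a range chosen after the members' spans were seen, 35.9% held a peak and 3.75% held 4 or more. When only the stronger 0.5 of the IDR peaks was counted, 9 summits stayed at the members and sty held none.

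By a limit of 1 kb, the members' peaks lay mostly away from promoters. A transcription start site (TSS) of the same gene lay within 1 kb of 7 of the 25 summits, at 1 to 5 kb from 11 and over 5 kb from 7. That is 28% within 1 kb, against 56.9% of all 3817 pairs of a protein-coding gene and a summit in its extended span. The comparison does not allow for length, as genes with a peak had a median span of 7203 bp and the members 17768 bp. By gene, 4 of 6 members (pnt, aop, edl and aos) had a summit within 1 kb of a TSS, against 12.5% of all genes. Neither share was computed for genes of like length or like number of TSSs. Introns held 20 of the 25 summits, the 1 kb upstream of the gene held 5, and no summit lay in an exon. With no upstream extension of the spans, the number within 1 kb of a TSS was 2. With the extension and a window of 2 kb, the number near a TSS was 12 of 25. Of the 7 summits over 5 kb from a TSS, 6 were in pnt.

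**Figure D1:**
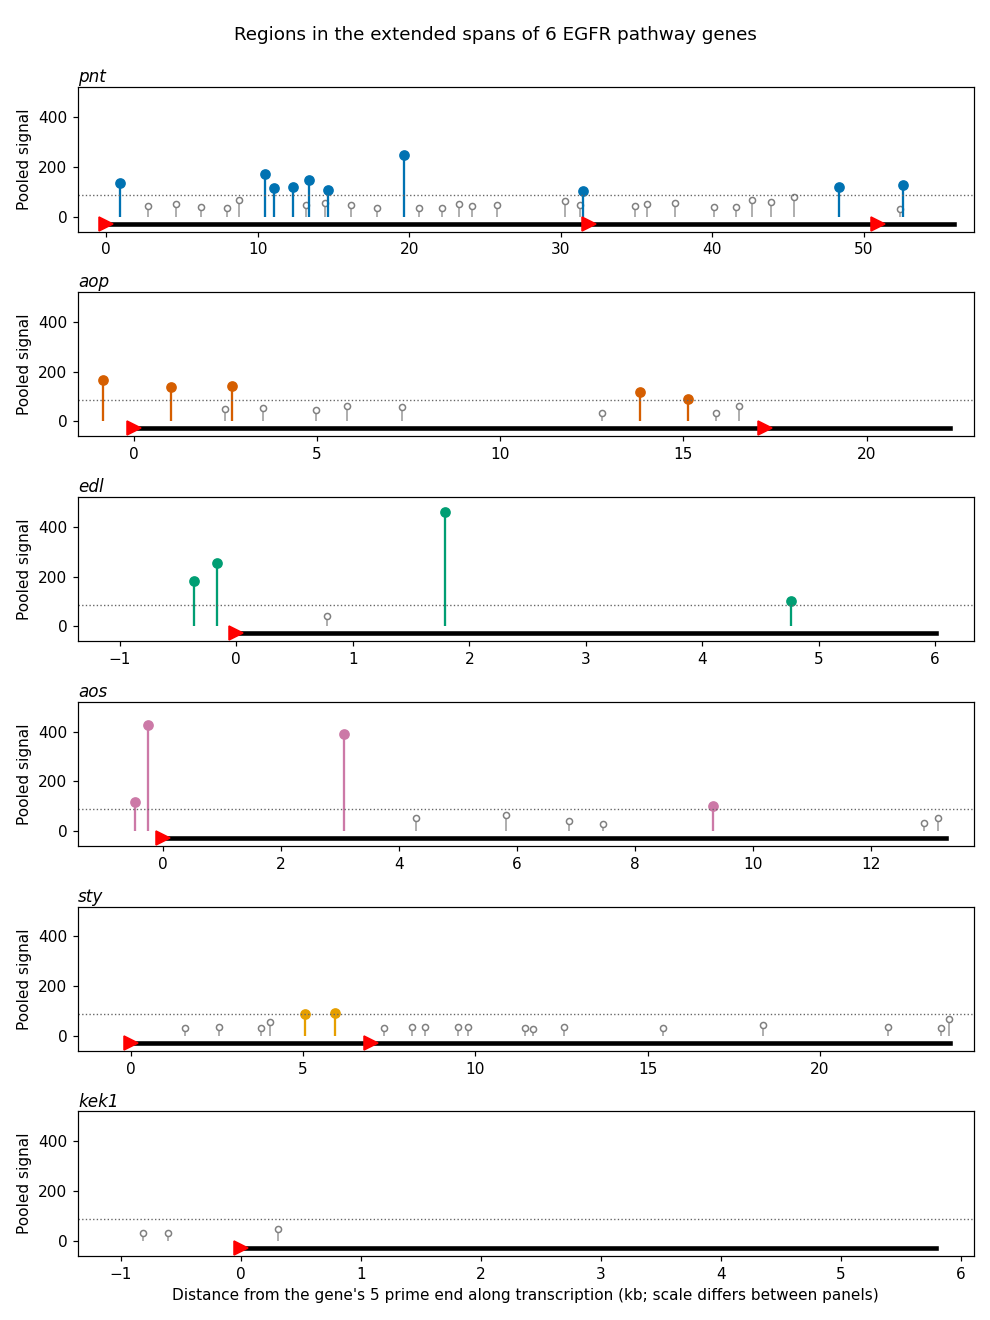
Positions of the regions along each member, as distance from the 5′ end in the direction of transcription (kb, a different scale in each panel), against pooled signal; filled points are IDR peaks, open points are weaker pooled regions, black bars are gene spans, red triangles are TSSs, and the dotted line is the lowest signal of the IDR list (87.5). The peaks of pnt run from near its 5′ end to near its 3′ end, with 5 of them crowded into 4188 bp and wide gaps between others. Those of edl and aos reach above 400 near the 5′ end, and kek1 has open points only.

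The gene pnt (FBgn0003118) spans 55.9 kb on 3R (23290231 to 23346167) and has 3 annotated TSSs, those of pnt-RB at the 5′ end, of pnt-RD 31852 bp further in and of pnt-RC and pnt-RE 50929 bp in. Its 10 peaks were the most of any member, and 7 genes in the genome held more. Their signals were moderate, with a median of 123 and a range of 102 to 246. Per length there were 1.76 peaks per 10 kb of extended span, beside a median of 1.69 over all genes with a peak. Those genes had a median of 1 summit and a median span of 7203 bp, so the comparison does not allow for length. The peaks of pnt were less dense than those of aop (2.15), aos (2.8) and edl (5.71). Of the genes with a peak, 37.4% had a higher top signal.

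The strongest pnt summit (23326493) lay in an intron, 19674 bp from the 5′ end and 12178 bp upstream of the pnt-RD TSS, with a signal of 246 pooled, 144 in replicate 1 and 104 in replicate 2. The next strongest summit (23335712) had a signal of 173 pooled, 114 in replicate 1 and 60.9 in replicate 2. Both were higher in replicate 1, the latter by 1.87-fold, the widest gap between replicates at this gene.

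Around the second of these summits 5 pnt peaks were crowded into 4188 bp of intron, from 23331524 to 23335712. Their pooled signals ran from 105 to 173. Over all IDR summits, 11 of 3769 runs of 5 neighbouring summits (0.292%, with overlapping runs counted) were as short, and the median run covered 92285 bp. The pnt run was picked as the closest 5 summits of the gene and is itself among the runs counted. The share therefore describes this run and does not measure how often crowding arises by chance. The summit at 23333850, with a signal of 118 pooled, 47.2 in replicate 1 and 66.5 in replicate 2, also lay within 1 kb upstream of lncRNA:CR46090, a long non-coding RNA gene.

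Each pnt promoter region had a peak within 3 kb of it, all of modest signal. At the pnt-RB TSS a summit lay 946 bp inside the gene (23345221), with a signal of 134 pooled, 72.5 in replicate 1 and 60.6 in replicate 2. At the pnt-RD TSS a summit lay 399 bp upstream (23314714), with a signal of 102 pooled, 37.2 in replicate 1 and 53 in replicate 2. Near the pnt-RC and pnt-RE TSS one summit lay 2531 bp upstream (23297769), with a signal of 117 pooled, 56.2 in replicate 1 and 55.8 in replicate 2. The order of the replicates differed between these sites, and none was more than 1.5-fold apart. A further summit lay 1694 bp inside that transcription unit (23293544), with a signal of 128 pooled, 53.3 in replicate 1 and 66.9 in replicate 2.

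The gene aop (FBgn0000097) spans 22.3 kb on 2L (2156484 to 2178754), with TSSs at the 5′ end and 17227 bp further in. Its 5 peaks fell into a group of 3 around the 5′ end and a group of 2 before the inner TSS, used by aop-RA and aop-RD. The strongest was upstream of the gene, 838 bp from the 5′ end (2179592), with a signal of 166 pooled, 79.1 in replicate 1 and 89.1 in replicate 2. The other summits at the 5′ end were intronic. The one at 1018 bp (2177736) had a signal of 137 pooled, 64.4 in replicate 1 and 69 in replicate 2. The one at 2689 bp (2176065) had a signal of 144 pooled, 68.1 in replicate 1 and 72.5 in replicate 2. All 3 were slightly higher in replicate 2, by at most 1.13-fold.

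The inner pair of aop repeated less well. The summit 3424 bp upstream of the inner TSS (2164951) had a signal of 117 pooled, 91.3 in replicate 1 and 24.5 in replicate 2, a 3.73-fold gap. The summit 2103 bp upstream of it (2163630) had a signal of 90.7 pooled, 64.1 in replicate 1 and 34 in replicate 2. These are the 2 summits that carry the ETS cores printed for aop, and both were high in replicate 1 and low in replicate 2. Among the 3793 strongest regions of replicate 2 alone they ranked too low to be included (ranks 12375 and 6114 of that list), and aop then held 3 peaks.

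The span rule left out further aop sites upstream. IDR summits lay 1537 bp (2180291) and 4208 bp (2182962) upstream of the 5′ end, in no gene and with aop as the gene of the nearest TSS. The nearer had a signal of 175 pooled, 96.8 in replicate 1 and 79 in replicate 2. The farther had a signal of 117 pooled, 43.7 in replicate 1 and 70.5 in replicate 2. The nearer was thus higher in the pooled list than any of the 5 peaks counted.

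The gene edl (FBgn0023214), also called mae, encodes a protein with the Pointed (SAM) domain of the ETS proteins but no DNA-binding domain. It is short, at 6010 bp on 2R (18667527 to 18673536), and with 4 peaks it had 5.71 peaks per 10 kb of extended span, the densest of the members (the median of genes with a peak was 1.69). It also held the members' strongest peak. That summit (18671746) lay in an intron 1790 bp from the 5′ end, with a signal of 461 pooled, 245 in replicate 1 and 217 in replicate 2. It ranked 240 of the 3793 IDR peaks, and 13.8% of the genes with a peak had a higher top signal.

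At the edl promoter 2 summits lay 199 bp apart, at 167 bp and 366 bp upstream of the TSS. The nearer (18673703) had a signal of 255 pooled, 139 in replicate 1 and 111 in replicate 2. The farther (18673902) had a signal of 183 pooled, 92.5 in replicate 1 and 81.9 in replicate 2. In the pooled list no summits were closer than 199 bp, so this pair stood at the resolution of the list. The last edl summit (18668773), 4763 bp from the 5′ end, had a signal of 100 pooled, 39 in replicate 1 and 60.8 in replicate 2, the only edl peak higher in replicate 2. A further IDR summit lay 3091 bp upstream of edl (18676627), in no gene, with a signal of 148 pooled, 70 in replicate 1 and 78.6 in replicate 2.

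Argos, the secreted protein that binds and sequesters the ligand Spitz, is encoded by aos (FBgn0004569), which spans 13.3 kb on 3L (16470386 to 16483650). The gene lies within CG33158 on the opposite strand, so each of its 4 summits falls in both genes, and ChIP-seq cannot assign them to either. The strongest lay 248 bp upstream of the aos TSS (16483898), with a signal of 426 pooled, 214 in replicate 1 and 208 in replicate 2. The next lay in an intron at 3078 bp (16480572), with a signal of 390 pooled, 195 in replicate 1 and 197 in replicate 2. These 2 peaks repeated within 1.03-fold and ranked 280 and 343 in the IDR list.

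The other aos peaks were much lower. The summit 468 bp upstream of the TSS (16484118) was 220 bp from the strongest, with a signal of 119 pooled, 65.2 in replicate 1 and 27.2 in replicate 2, a 2.4-fold gap. The intronic summit at 9327 bp (16474323), next to the ETS core printed for aos, had a signal of 101 pooled, 59 in replicate 1 and 44.2 in replicate 2. Neither was among the 3793 strongest regions of replicate 2 alone, where aos held 2 peaks.

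Sprouty, an intracellular inhibitor of receptor tyrosine kinase signalling, is encoded by sty (FBgn0014388), which spans 23.8 kb on 3L (3401153 to 3424935) with TSSs at the 5′ end and 6974 bp further in. Its 2 peaks lay 882 bp apart in the intron before the inner TSS and were near the floor of the IDR list. The one 1046 bp upstream of that TSS (3419007) had a signal of 93.2 pooled, 52.4 in replicate 1 and 42.4 in replicate 2. The one 1928 bp upstream of it (3419889) had a signal of 89.9 pooled, 35.5 in replicate 1 and 54.1 in replicate 2. The replicates ranked the pair in opposite order, and 94.9% of the genes with a peak had a higher top signal. Among the 3793 strongest regions of replicate 2 alone, sty held 1 peak.

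Stronger peaks with sty as the gene of the nearest TSS lay upstream, inside the span of eIF5B, a translation initiation factor gene. The nearest of them, 7889 bp from the sty 5′ end (3432824), had a signal of 215 pooled, 96 in replicate 1 and 125 in replicate 2. A further summit at 12478 bp (3437413) had a signal of 141 pooled, 68.6 in replicate 1 and 66.2 in replicate 2. The last, at 13739 bp (3438674), had a signal of 152 pooled, 73.3 in replicate 1 and 91.3 in replicate 2. All 3 exceeded both peaks inside sty in every list. The span rule gives them to eIF5B, and which gene they act on was not tested.

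The gene kek1 (FBgn0015399) encodes a transmembrane protein with leucine-rich repeats and an immunoglobulin domain that binds the receptor and inhibits it. It spans 5788 bp on 2L (12817000 to 12822787), about as long as edl, and was the only member without an IDR peak. The pooled list held 3 weaker regions there. The strongest lay 305 bp inside the gene in the 5′ UTR (12822482), with a signal of 48.5 pooled (rank 10383 of 30000), 35.8 in replicate 1 and no match in replicate 2. A region 819 bp upstream (12823606) had a signal of 33.9 pooled, 19 in replicate 1 and 17 in replicate 2. A region 605 bp upstream (12823392) had a signal of 31.2 pooled and no match in either replicate. Both upstream regions were close to the lowest signals of the lists, which were 29.8 pooled, 18 in replicate 1 and 16.1 in replicate 2.

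The surroundings of kek1 were also empty of IDR peaks. The nearest summit past the 3′ end was 94.9 kb away (12722074), in MRP, a transporter gene, and Pih1D1, with a signal of 577 pooled, 300 in replicate 1 and 277 in replicate 2. The nearest upstream was 181 kb away (13004215), in Vha68-1 and mTor, with a signal of 244 pooled, 114 in replicate 1 and 123 in replicate 2. Of the next protein-coding genes, ACXC, 89.7 kb upstream, held no peak, and MRP, 50.5 kb past the 3′ end, held 1. The median distance between an IDR summit and the nearest other one was 3943 bp, but the median run of 5 neighbouring summits covered 92285 bp. Both are distances between summits, and the distance from other genes to their nearest summit was not computed.

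**Figure D2:**
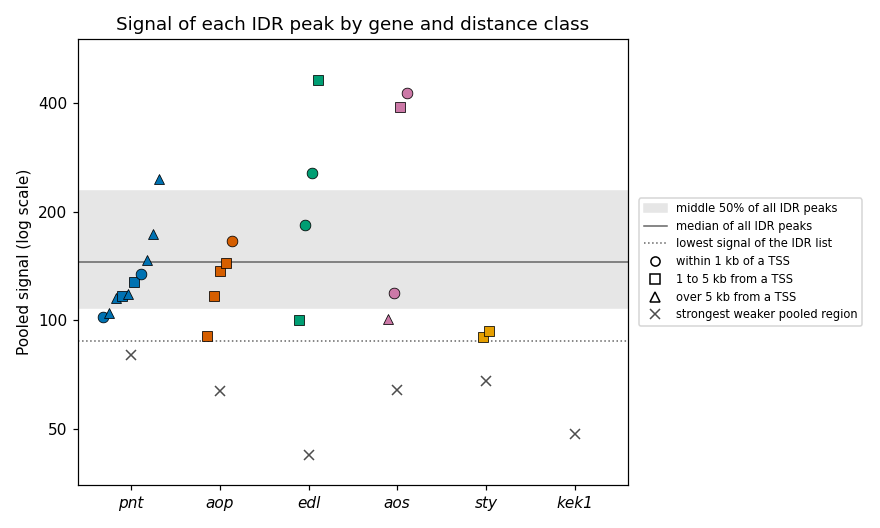
Pooled signal (log scale) of each of the 25 IDR peaks by gene, with the symbol giving the distance to the nearest TSS of the gene; the line and the band are the median (145) and the range from the lower to the upper quartile (108 to 228) of all 3793 IDR peaks, and crosses are the strongest weaker region of each gene. The only points above the band are the highest of pnt, the 2 highest of edl and the 2 highest of aos, and both sty points lie just above the floor of the list.

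The members' peaks were of ordinary height. Their median signal was 128 (n = 25, 89.9 to 461), against 145 for all IDR peaks (n = 3793, 87.5 to 2078). The median of all was exceeded by 9 of the 25, the upper quartile of 228 by 5, and 7 were below the lower quartile of 108. The largest q-value among them was 0.0223. By distance, the medians were 166 (102 to 426) within 1 kb of a TSS, 117 (89.9 to 461) at 1 to 5 kb and 118 (101 to 246) beyond, and these ranges overlapped.

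The peaks were also close to each other. The median distance from a member's summit to the nearest other IDR summit was 1321 bp, and 17 of 25 had another within 2 kb, against 35.9% of all IDR summits. They were 5 of the 10 at pnt, all 5 at aop, 3 of 4 at edl, 2 of 4 at aos and both at sty. Within 250 bp of another were 4 of the 25, the edl and aos promoter pairs, beside 12.2% of all IDR summits.

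Each of the 25 peaks had a summit within 100 bp in both replicate lists, whereas 3504 of the 3793 IDR peaks did. The log2 ratio of replicate 1 to replicate 2 had a median of 0.18 and an SD of 0.59 over the members' peaks, and a median of 0.16 and an SD of 0.46 over all matched peaks. An aop peak (log2 ratio 1.90) and an aos peak (1.26) were the only 2 of 25 (8%) that differed over 2-fold. Over all matched peaks 4.94% did. Among the equally many strongest regions of each replicate, 15 of the 25 were present in both, 4 were missing from those of replicate 1, 6 from those of replicate 2 and 0 from both. Whether both replicate lists share a scale is not given in the sources used here.

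**Figure D3:**
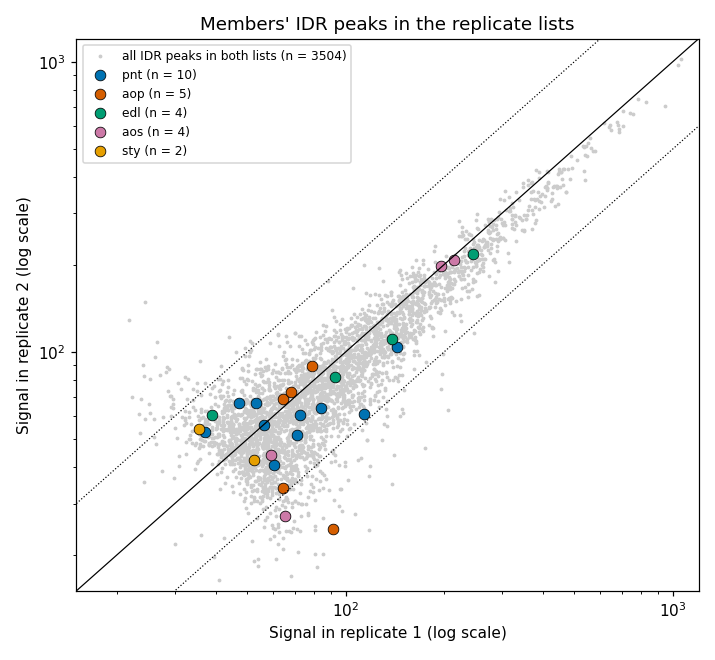
Signal of each IDR peak in replicate 2 against replicate 1 (both log scales), with the members' peaks coloured by gene and all 3504 peaks matched in both lists in grey; the solid line is equality and the dotted lines are 2-fold differences. The 3 strongest members' peaks (edl and aos) lie near the line, and only 1 peak each of aop and aos falls below the lower dotted line.

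Below the IDR list, the pooled list held 60 further regions at the 6 members, with signals of 30.2 to 80.1 and a median of 42.2. Of these, 5 lay 201 to 205 bp from an IDR summit, near the smallest spacing in the pooled list (199 bp), so they may not be separate sites. Of the 60, 12 had a match in both replicates, 17 in replicate 1 only, 20 in replicate 2 only and 11 in neither. They numbered 25 at pnt, 17 at sty, 8 at aop, 6 at aos, 3 at kek1 and 1 at edl. Weaker regions far outnumbered peaks at sty and were fewer than peaks at edl, and per their deposited names these lists include background regions.

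The strongest weaker region lay in pnt, 5520 bp upstream of the pnt-RC and pnt-RE TSS (23300758), with a signal of 80.1 pooled, 41.4 in replicate 1 and 45.4 in replicate 2. It was just outside the IDR list, whose weakest members' peaks were those of 89.9 in sty and 90.7 in aop, and was the only weaker region of the members within the first 5000 of the pooled list. At aop the strongest (2162249) lay 722 bp upstream of the inner TSS, with a signal of 64 pooled, 57.8 in replicate 1 and 39.3 in replicate 2. At aos the strongest (16477837) had a signal of 64.2 pooled, 22.7 in replicate 1 and 36.7 in replicate 2. The strongest at sty (3401184) was at the far end of the gene, in the 3′ UTR, with a signal of 68 pooled, 37.4 in replicate 1 and 33.7 in replicate 2. The single one of edl (18672755) had a signal of 42.6 pooled, 25.2 in replicate 2 and no match in replicate 1.

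The replicate lists held more regions with no pooled summit within 100 bp, 14 in replicate 1 and 24 in replicate 2. None of them was matched in both, and some overlapped IDR peaks already counted. The highest in replicate 1 was a sty region with a signal of 54.1, 810 bp upstream of the inner TSS (3418771). It overlapped the sty peak with its summit at 3419007. The highest in replicate 2 was a pnt region with a signal of 43.8, 893 bp upstream of the 5′ end (23347060). This pnt region was accompanied by another at 664 bp (23346831, signal 43.4 in replicate 2). Neither had a listed counterpart in replicate 1, whose list ends at a signal of 18.

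The other genes of the pathway and the related families were counted by the same span rule. Beside their shares stand 16.2% of all genes and 35.9% of genes of 5 to 60 kb. That range leaves out some listed genes that held peaks. They were Krn (4719 bp), Shc (1662 bp), ed (84373 bp), kek5 (118734 bp) and Eip74EF (60654 bp). The genes of the receptor and its ligands had a median span of 14110 bp. Of 9 genes of the receptor and its ligands, 7 held a peak (77.8%), none held 4 or more, and the median of their highest signals was 168, against 197 for all genes with a peak. The ligand gene spi had the strongest at a signal of 617 pooled, 350 in replicate 1 and 263 in replicate 2. It was followed by S (Star, which escorts Spitz to the Golgi, 321 pooled, 158 in replicate 1 and 159 in replicate 2). The ligand gene Krn had 305 pooled, 157 in replicate 1 and 143 in replicate 2. Peaks were also present at Egfr, vn, rho and stet and none at grk and ru.

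Of 11 genes of the cytoplasmic cascade, with a median span of 6038 bp, 4 held a peak (36.4%). That is near the 35.9% of genes of 5 to 60 kb, and 16.2% of all genes held a peak. The 4 genes are named here. They were the adaptor gene Shc (769 pooled, 428 in replicate 1 and 336 in replicate 2), the kinase gene Raf with 8 peaks (highest 613, and 347 and 263 in replicates 1 and 2), the adaptor gene dos (247, and 119 and 138 in replicates 1 and 2) and rl, which encodes the MAP kinase. The median of their 4 highest signals was 430, with that of rl far below the others at 97.5 pooled, 50.9 in replicate 2 and no match in replicate 1 (a value added after it was seen). No IDR peak was found at drk, Sos, Ras85D, ksr, Dsor1, csw or cnk.

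Of 6 other negative regulators, with a median span of 14968 bp, 4 held a peak (66.7%), against 35.9% of genes of 5 to 60 kb. The highest was at RasGAP1, a GTPase activator for Ras (531 pooled, 293 in replicate 1 and 242 in replicate 2). Then came Socs36E (308, and 152 and 158 in replicates 1 and 2) and ed, an adhesion protein gene with 8 peaks (highest 287, and 157 and 127 in replicates 1 and 2). Mkp3, which encodes a MAP kinase phosphatase, held 2 peaks, and Cbl and Spred none. The top peak of RasGAP1 exceeded those of the 5 members with a peak, and those of Socs36E and ed lay below edl and aos and above pnt, aop and sty.

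In the Kekkon family, kek5 held 6 peaks (highest 163, and 90.9 in replicate 2 with no match in replicate 1), kek6 held 1 (90.5, and 49.8 and 38.7 in replicates 1 and 2) and kek2 held 1 (89.1, and 43.4 and 37.1 in replicates 1 and 2). None was found at kek3 and kek4, so 3 of 5 held a peak (60%), and all 3 are long genes of over 40 kb. The median span of the 5 was 42511 bp, and 35.9% of genes of 5 to 60 kb held a peak. Of 6 other ETS genes, only Eip74EF, an ecdysone-induced gene, held peaks. It held 2, the highest at 157 pooled and 67 in replicate 2, with no match in replicate 1. The share of 16.7% stood beside 16.2% of all genes and 35.9% of genes of 5 to 60 kb, and the median span of the list was 10865 bp. Eip74EF itself, at 60654 bp, lies just outside that range. None of these 5 Kekkon and 6 other ETS genes reached the median highest signal of 197 of all genes with a peak. All these lists were chosen with earlier results of the data known, and their shares are descriptions.

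The members' summits sat in A+T-rich DNA, as summits did across the genome. Within 100 bp of the summit the G+C content was 32.9% ± 6.99 (SD, n = 25 peaks), with flanks centred 500 bp to each side at 43.5%. Over all IDR peaks it was 33.8% ± 5.99 (SD, n = 3793), with flanks at 43%. The G+C content was below that of the flanks at 23 of the 25 peaks (92%) and at 85.2% of all. The exceptions were 1 peak each of aop and aos.

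**Figure D4:**
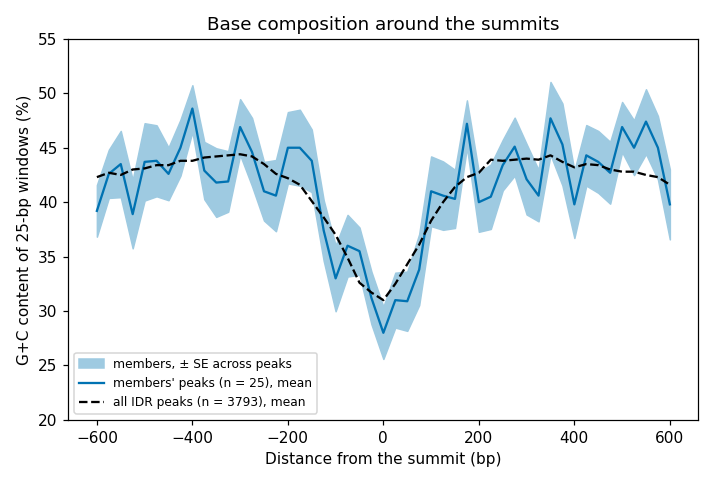
Mean G+C content (%) of 25-bp windows by distance from the summit (bp) for the members' 25 peaks (solid line, band ± SE across peaks) and for all 3793 IDR peaks (dashed line). Both fall to their minimum at the summit, to 28% ± 2.4 (SE) for the members and 31% for all peaks, from 40% or more at 300 bp to either side.

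The aos promoter held both extremes of the members. Its strong summit had a G+C content of 17.4% over 201 bp, and 3 of all IDR peaks (0.0791%) were as low. The weaker summit 220 bp further upstream had 50.7%, and 38 IDR peaks (1%) were as high. These windows lie next to each other without overlap, and the peak of low G+C content had more than 3 times the pooled signal of the other. The called regions of these peaks do overlap. Their spacing of 220 bp is near the smallest in the pooled list (199 bp), so they may not be separate sites.

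Short motifs were counted on both strands within 100 bp of the summits, as presence or absence. The Forkhead core TAAACA was present at 11 of 25 members' peaks (44%, 95% Clopper-Pearson interval 24.4 to 65.1%), against 26.8% of all IDR peaks. They were 4 peaks of pnt, 3 of aop, 2 of edl and 2 of aos, with none of sty. The ETS core CAGGAA was present at 5 (20%, interval 6.83 to 40.7%), against 6.35%, with 2 of aop, 2 of edl and 1 of aos. Both intervals are wide at 25 peaks, cover counting error only and treat neighbouring peaks as independent. Neither interval serves as a test against the share of all peaks, because 9 motifs were searched in genes chosen with earlier results known. That share also includes the members' own peaks.

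Within 50 bp of the summit these shares were lower, with TAAACA at 5 of 25 peaks (20%, against 15.5% of all) and CAGGAA at 1 (4%, against 3.37%). The matches beyond 50 bp thus made up most of both counts. The other ETS core, CCGGAA, was present at 1 peak (4%, against 2.98%), at edl.

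The remaining motifs differed little from all peaks or were too rare to compare. The homeodomain core TAATTA was present at 5 peaks (20%, against 19.1%), 4 of them in pnt. The GATA site TGATAA was present at 5 (20%, against 17.9%) and the 6-mer TTAAAA at 12 (48%, against 54%). The 6-mer CAGTGC was present at 4 (16%, against 16.4%), the Trl site GAGAGAG at 1 (4%, against 3.16%) and the DREF and BEAF-32 site TATCGATA at 0 of 25 (interval up to 13.7%, against 1.48%).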

How the data were processed

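The members and the lists of other genes were chosen with earlier results of these data known. Per the notes deposited with each sample, each replicate list came from the alignments of that replicate and a control, the pooled list from both replicates and the control, and the IDR list from these by thresholding. The aligner, the peak caller, the IDR threshold and the depth were not given in the sources used here. The peak signal is the authors' own, deposited on an unstated scale. Significance was deposited by the authors as the −log10 of a q-value. The summit position was deposited as an offset in bp, treated as a score column. Lists on dm3 were not used here.

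Summits (1-based, dm6) were assigned to Ensembl release 115 genes (BDGP6.54) extended 1 kb upstream. The spans of the 6 members were the same in the RefSeq annotation. Summits within 100 bp were matched between lists. Named genes were all members, the genes with a peak in each list, with values for at most the 3 of highest signal, genes overlapping a member's summit and the neighbours of kek1. With 1 group no test was made. Scripts (Python 3.11.15, numpy 2.4.6, pandas 2.3.3, scipy 1.17.1, matplotlib 3.10.9) were checked on simulated data. Alternatives are given with the closing section. Counting close summits once, leaving out summits shared with other genes and the range of 5 to 60 kb were chosen after seeing the data.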

Additional observations from a re-analysis of the deposited data

How the results depend on the processing

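No paired analysis was possible because the 2 replicates form 1 group. With the strongest regions of a single replicate in place of the IDR list, 5 members held a peak in either case, with 20 (without replicate 1) to 24 (without replicate 2) summits, 6 to 9 of them within 1 kb of a TSS, and 2354 to 2486 of all genes held a peak. By gene, the count without replicate 1 was 3 for aop, 2 for aos and 1 for sty. Counting the stronger 0.5 of the IDR peaks gave 9 summits in 4 members, 4 of them within 1 kb of a TSS, and a median signal of 246. With no upstream extension 2 summits lay within 1 kb of a TSS, and 1295 of all genes held a peak. A TSS window of 2 kb gave 12. Assignment to the nearest TSS gave 30 summits with a median signal of 139. Within 50 bp of the summit the motif shares were 0% for CCGGAA, 4% for CAGGAA, 20% for TAAACA and 0% for GAGAGAG. The cause of these shifts was not tested, apart from the narrower windows and shorter lists themselves. Merging summits under 500 bp gave 23 and leaving out those in other protein-coding genes gave 21, both chosen after seeing the data.

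The unstated scale of the signal limits comparisons to ranks within a list. The unknown depth leaves the weaker regions without an error, and 2 replicates leave each peak with 2 values. Motif and G+C shares rest on 25 peaks, several of which are neighbours.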
